A study of Mus musculus with 24 samples.

Results

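The expression of 10 interferon-induced GTPases was followed in the mouse choroid plexus: Gbp2, Gbp3, Gbp6, Gbp7, Irgm1, Irgm2, Igtp, Iigp1, Mx1 and Mx2. They were taken as every probe set whose single gene symbol in the array's annotation is one of these names, which gave 13 probe sets of 10 genes among 22626 probe sets of 12393 genes other than controls. Choroid plexus, the tissue that secretes cerebrospinal fluid, was measured on 24 Affymetrix arrays. The 4 groups of 6 arrays were ApoE4 mice on a high-fat diet (HFD), ApoE3 mice on HFD, ApoE4 mice on chow and ApoE3 mice on chow, each with 3 males and 3 females. Every mouse was 78 weeks old, of strain C57BL, and carried a humanized ApoE knock-in, either ApoE4 or ApoE3, so both genotypes are humanized and no group carries the mouse allele. The tissue was laser-captured from frozen nervous system, how the captured areas were chosen is not given in the sources used here, and no label ties each array to an animal of its own. A p-value here is therefore set by the variation among samples, part of which may be technical.

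Guanylate-binding proteins (Gbp) and immunity-related GTPases (Irgm1, Irgm2, Igtp, Iigp1) are enzymes that bind and hydrolyse GTP and that cells make in response to interferons. They gather on the vacuoles of intracellular bacteria and parasites and on damaged membranes, and they are best known from infected macrophages and fibroblasts. Within the IRG family, Irgm1, Irgm2 and Igtp (also called Irgm3) are regulators that sit on the cell's own membranes and keep effectors such as Iigp1 (Irga6) inactive there. Mx1 and Mx2 are dynamin-like antiviral GTPases that respond mainly to type I and type III interferons, while the Gbp and IRG genes respond strongly to interferon gamma and also to type I interferon.

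The genes lie in a few places of the genome. In the RefSeq annotation Gbp7 and Gbp3 are adjacent coding genes on chromosome 3, and Gbp2 follows after Gbp2b. Igtp and Irgm2 are adjacent on chromosome 11, where Irgm1 also lies, apart from them. RefSeq promoters (GRCm38.p6, 250 bases before to 50 after the start) were matched for 6 of the 10 genes. The sequences of 5 are shown because their genes are the ones the comparisons turn on: Gbp3 and Gbp2, from one stretch of chromosome 3, with unequal genotype differences, and the 3 IRG regulators. Capitals mark matches, on either strand, to an interferon-stimulated response element core (ISRE: GAAA, any 2 bases, GAAA) or to a gamma-activated site (GAS: TTC, any 3 bases, GAA). Each is printed 5′ to 3′ on the gene's strand. Gbp3 is at chr3:142559794-142560093, plus strand, Gbp2 at chr3:142620413-142620712, plus strand, Irgm1 at chr11:48871371-48871670, minus strand, Igtp at chr11:58199306-58199605, plus strand, and Irgm2 at chr11:58214727-58215026, plus strand.
Gbp3: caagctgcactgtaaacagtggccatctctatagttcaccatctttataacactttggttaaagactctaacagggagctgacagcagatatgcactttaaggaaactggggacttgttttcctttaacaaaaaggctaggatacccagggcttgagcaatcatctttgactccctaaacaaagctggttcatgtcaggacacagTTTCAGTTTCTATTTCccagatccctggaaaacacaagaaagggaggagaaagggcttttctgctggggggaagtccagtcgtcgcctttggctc
Gbp2: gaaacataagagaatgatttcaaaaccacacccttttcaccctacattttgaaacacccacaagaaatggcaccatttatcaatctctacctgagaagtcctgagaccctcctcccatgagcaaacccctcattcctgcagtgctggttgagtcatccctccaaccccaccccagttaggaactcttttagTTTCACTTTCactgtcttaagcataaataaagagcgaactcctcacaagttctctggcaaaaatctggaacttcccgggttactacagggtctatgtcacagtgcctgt
Irgm1: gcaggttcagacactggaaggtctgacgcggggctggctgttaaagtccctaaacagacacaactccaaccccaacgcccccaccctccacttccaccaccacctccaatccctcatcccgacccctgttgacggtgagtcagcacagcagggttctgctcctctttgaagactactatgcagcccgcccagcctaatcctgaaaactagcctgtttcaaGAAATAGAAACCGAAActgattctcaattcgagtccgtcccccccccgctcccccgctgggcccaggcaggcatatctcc
Igtp: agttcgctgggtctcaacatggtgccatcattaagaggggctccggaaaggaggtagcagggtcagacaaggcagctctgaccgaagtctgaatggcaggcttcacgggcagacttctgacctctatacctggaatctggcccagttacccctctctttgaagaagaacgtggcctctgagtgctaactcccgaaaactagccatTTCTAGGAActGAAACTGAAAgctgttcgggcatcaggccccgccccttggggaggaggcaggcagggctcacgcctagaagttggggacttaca
Irgm2: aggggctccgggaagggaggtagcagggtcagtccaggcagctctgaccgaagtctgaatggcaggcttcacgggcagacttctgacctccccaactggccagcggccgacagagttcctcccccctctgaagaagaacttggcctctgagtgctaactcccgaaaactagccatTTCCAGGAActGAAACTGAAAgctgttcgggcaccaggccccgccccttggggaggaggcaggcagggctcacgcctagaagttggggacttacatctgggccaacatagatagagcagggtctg

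All 6 genes searched had an ISRE match in a promoter, where 3.44% of the 32851 RefSeq promoters of this length had one. That share is per promoter, and the 6 genes had 7 promoters. Iigp1 was left out of the search, so the 6 genes are a chosen part of the members. Gbp3 and Irgm1 each held 2 ISRE matches that overlap. In Gbp3 they lie at -45 to -36 and -39 to -30 from the start base, and in Irgm1 at -30 to -21 and -24 to -15. A second annotated Gbp3 promoter held no match. Gbp2 held 1 ISRE match, at -59 to -50. Igtp and Irgm2 had the same arrangement, a GAS match, 2 bases, and then the ISRE letters GAAACTGAAA, and their promoters share an identical run of 61 bases. Gbp7, at chr3:142530086-142530385 on the plus strand, held 1 ISRE match, TTTCAGTTTC, and 2 GAS matches, TTCCAGGAA and TTCTCAGAA. Across all promoters 8.3% held a GAS match and 0.454% held both motifs. These matches describe letters in a window and say nothing about binding.

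The signal of a probe set is its brightness after the authors scaled each array to a common trimmed mean, which read 500.173 to 500.194 on the 24 arrays. It says nothing about one probe set's level against another's. A detection call of Present means that the authors' software found the signal above background. All member probe sets were called Present on 24 of 24 arrays except 1 of the 2 for Gbp7 (20 arrays), Mx1 (10 arrays) and Mx2 (0 arrays). Probe sets Present on at least 6 arrays entered the test, which kept 12 member probe sets of 9 genes among 13936 probe sets in all. Ttr, the transthyretin that defines choroid epithelium, read 13080.0 to 25450.0, and 8 of 8 epithelial markers on the array were measured. The sex labels were borne out by Xist (6466.2 to 9598.5 in females, 117.6 to 261.9 in males). Differences are log2 fold changes of signal + 16 ± SE with Benjamini-Hochberg adjusted p from limma, fitted to all 24 arrays with sex as a term, n = 6 arrays per group. The added 16 understates the change of dim probe sets.

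Member probe sets rose in ApoE4 relative to ApoE3 on each diet, those of 7 of the 9 tested genes on HFD and of 4 of 9 on chow, and none fell. On HFD 8 of 12 member probe sets, of 7 genes, rose in ApoE4 and 0 fell, where 10.4% of all probe sets tested rose and 16% fell. On chow 4 of 12, of 4 genes, rose and 0 fell, against 4.44% and 5.81% of all. The genes that passed on both diets were Gbp3, Irgm1, Gbp7 and Irgm2, and those that passed on HFD and not on chow were Igtp, Gbp6 and Iigp1. Whether the genotype difference itself depended on diet is a separate test, given further on. The median log2 difference over the 12 member probe sets was 0.91 on HFD and 0.64 on chow, against -0.055 and -0.023 over all probe sets tested. With the mean of both diets, 8 of 12 rose and 0 fell, against 14.7% and 22.9%.

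**Figure D1:**
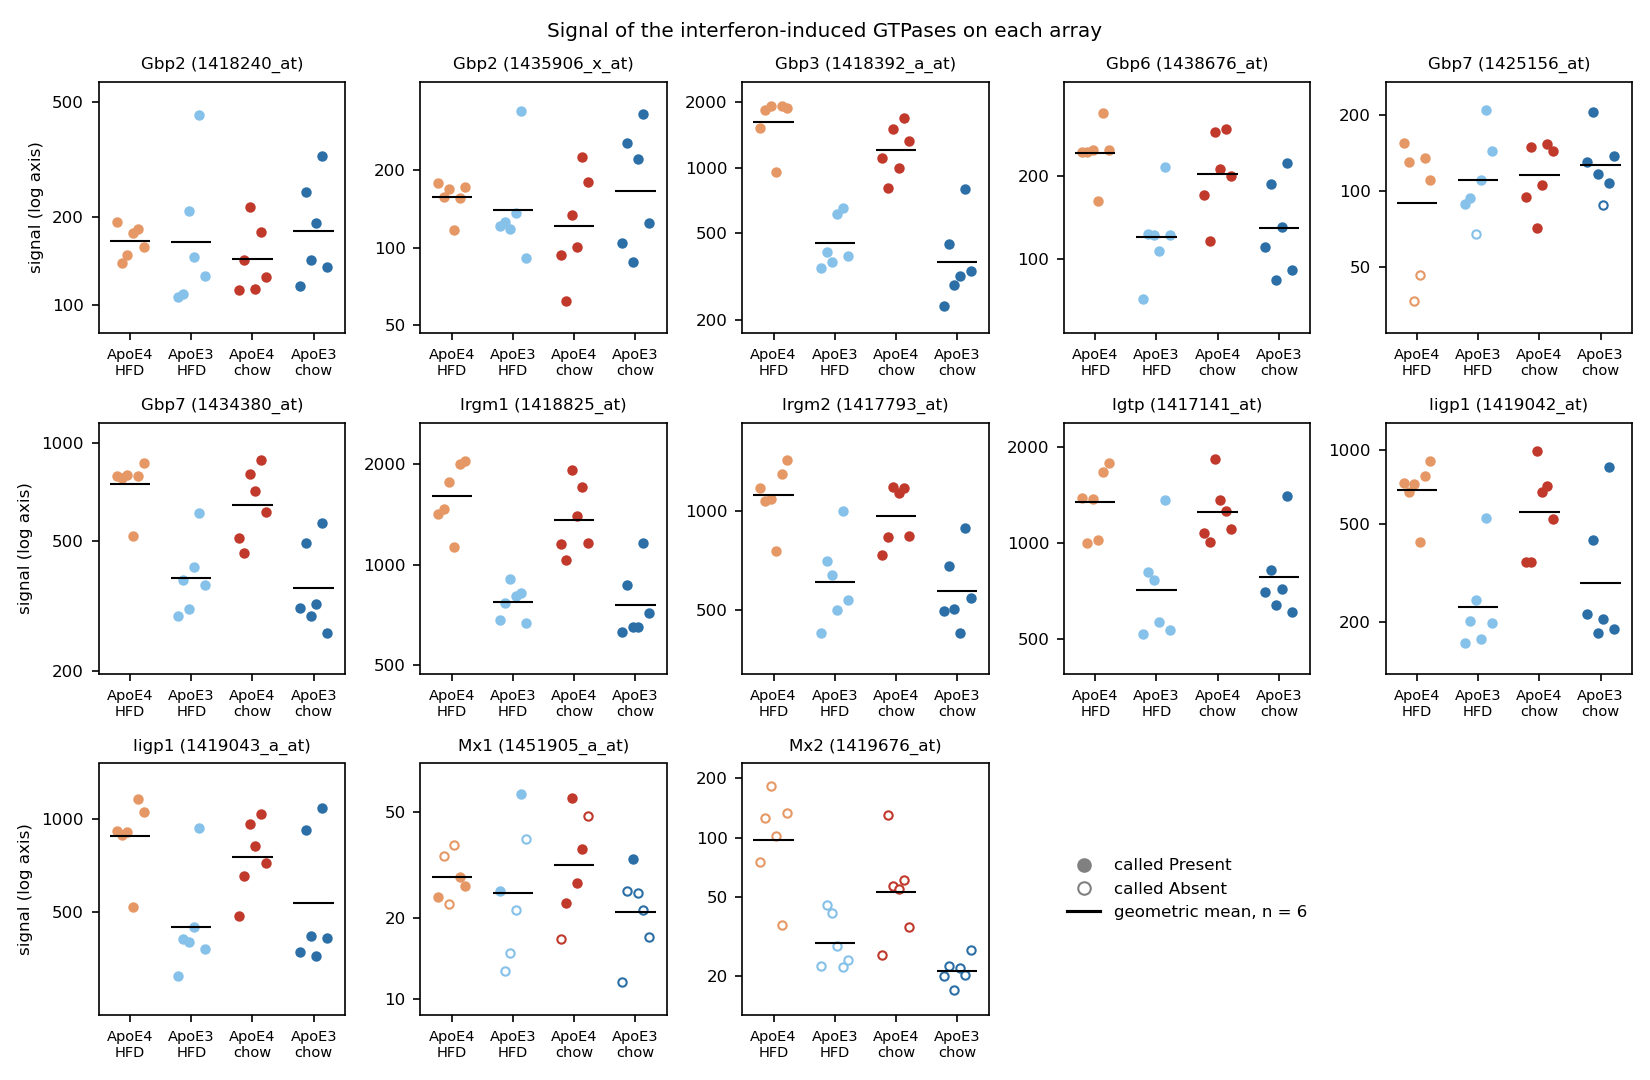
Signal (log axis) of each of the 13 member probe sets on each array, in the order ApoE4 HFD, ApoE3 HFD, ApoE4 chow, ApoE3 chow. Filled points were called Present and open points Absent, and the bar is the geometric mean of 6 arrays. Where a gene has 2 probe sets the one called the first in the text precedes the second, and for Gbp7 the dimmer precedes the brighter. For Gbp3 the 6 ApoE4 arrays lie above the 6 ApoE3 arrays on each diet, while the Gbp2 groups overlap.

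Gbp3 had the largest log2 difference of the 12 member probe sets on each diet. On HFD its signal was 957.5, 1863.6 and 1919.1 (lowest, median, highest) in ApoE4, against 347.1, 402.85 and 653.1 in ApoE3. On chow it was 812.1, 1219.95 and 1695.0 in ApoE4, against 232.0, 326.6 and 801.7 in ApoE3. Every ApoE4 array was above every ApoE3 array on both diets. The rise was 3.52-fold on HFD (log2 1.82 ± 0.24, adjusted p = 5.13e-05) and 3.16-fold on chow (1.66 ± 0.24, adjusted p = 0.000379). Separation without overlap was rare across the array: 3.58% of tested probe sets had every ApoE4 array above every ApoE3 array on HFD and 1.54% on chow. Among the 12 member probe sets only Gbp3 and Irgm1 separated so on HFD, and only Gbp3 on chow.

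Gbp7, which in infected cells helps to bring other defence proteins to vacuoles, was read by 2 probe sets that did not move together. The brighter one had signals of 518.6, 790.95 and 866.6 in ApoE4 on HFD, against 294.3, 374.5 and 610.2 in ApoE3 on HFD. On chow it had 459.3, 662.8 and 887.6 in ApoE4, against 261.5, 317.1 and 566.5 in ApoE3. The groups overlapped by a few arrays: 5 of 6 ApoE4 arrays exceeded the highest ApoE3 array on HFD and 4 of 6 on chow. It rose by 0.93 ± 0.19 on HFD (adjusted p = 0.00172) and by 0.82 ± 0.19 on chow (adjusted p = 0.0110). The dimmer one, with signals between 36.5 and 209.1, did not pass on either diet (-0.25 ± 0.28, adjusted p = 0.533, on HFD and -0.11 ± 0.28, adjusted p = 0.829, on chow). After group means and sex were taken out, the 2 probe sets correlated with r = 0.33 over 24 arrays, against 0.72 for the 2 of Gbp2 and 0.92 for the 2 of Iigp1. The result for Gbp7 therefore rests on 1 of its 2 probe sets.

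Gbp6 had signals of 162.0, 246.65 and 340.8 in ApoE4 on HFD, against 71.3, 122.05 and 216.5 in ApoE3 on HFD, where it rose by 0.92 ± 0.23 (adjusted p = 0.00606). On chow its signals were 116.1, 206.5 and 297.3 in ApoE4, against 83.3, 120.45 and 223.8 in ApoE3. There the groups overlapped broadly and the difference did not pass (0.60 ± 0.23, adjusted p = 0.0904).

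Gbp2 did not pass in any comparison with either of its 2 probe sets. The signals of the first were 139.3, 168.0 and 192.4 in ApoE4 on HFD, against 106.9, 135.55 and 450.9 in ApoE3 on HFD. On chow they were 112.4, 133.65 and 216.4 in ApoE4, against 116.2, 167.55 and 325.4 in ApoE3. The highest array of each diet was an ApoE3 array. The log2 differences were -0.0095 ± 0.26 (adjusted p = 0.983) on HFD and -0.30 ± 0.26 (adjusted p = 0.475) on chow, and the sign on HFD turned under quantile normalization (0.16). The 95% interval of the mean difference over both diets ran from -0.54 to 0.23 for this probe set and from -0.55 to 0.28 for the second, whose name marks probes that may also match other transcripts.

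Gbp3 and Gbp7 lie in the same gene cluster as Gbp2 and can be set against it on each array, which restates the fold changes above array by array and is a description. The log2 difference between Gbp3 and the first Gbp2 probe set on the same array averaged 3.18 ± 0.49 in ApoE4 and 1.35 ± 0.57 in ApoE3 on HFD (SD, n = 6 each), a gap of 1.83. On chow it averaged 2.93 ± 0.33 in ApoE4 and 0.97 ± 0.22 in ApoE3, a gap of 1.96. For the brighter Gbp7 probe set against the same Gbp2 probe set the gaps were 0.94 on HFD and 1.12 on chow. The pairs were chosen after the values were seen, so no test is given.

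The 3 IRG regulators all rose on HFD. Irgm1, whose loss in mice impairs defence against intracellular bacteria, had signals of 1125.1, 1615.2 and 2044.3 in ApoE4 on HFD, against 670.3, 786.95 and 903.9 in ApoE3 on HFD. On chow it had 1028.4, 1280.7 and 1918.1 in ApoE4, against 627.9, 683.7 and 1161.5 in ApoE3. The groups did not overlap on HFD, and on chow 1 ApoE3 array, at 1161.5, stood above 3 of the 6 ApoE4 arrays. The rise was 2.05-fold on HFD (1.04 ± 0.17, adjusted p = 0.000211) and 1.77-fold on chow (0.83 ± 0.17, adjusted p = 0.00444).

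Irgm2 had signals of 754.5, 1136.45 and 1435.0 in ApoE4 on HFD, against 426.0, 589.25 and 999.8 in ApoE3 on HFD. On chow they were 736.3, 990.7 and 1188.9 in ApoE4, against 425.8, 523.75 and 888.4 in ApoE3. All 6 ApoE4 arrays exceeded the ApoE3 median on each diet, and 5 on HFD and 3 on chow exceeded the highest ApoE3 array. It rose by 0.86 ± 0.20 on HFD (adjusted p = 0.00368) and by 0.74 ± 0.20 on chow (adjusted p = 0.0204). The chow call was lost without ApoE4 chow array 4 (0.71, adjusted p = 0.0504).

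Igtp, beside Irgm2 on the chromosome and with the promoter arrangement printed above, had signals of 995.4, 1383.35 and 1778.3 in ApoE4 on HFD, against 515.6, 664.2 and 1365.3 in ApoE3 on HFD. On chow they were 1007.3, 1182.7 and 1839.4 in ApoE4, against 604.5, 708.35 and 1400.1 in ApoE3. One ApoE3 array on each diet, array 5, reached well into the ApoE4 range. Igtp rose on HFD (0.90 ± 0.23, adjusted p = 0.00820) and missed the threshold on chow (0.67 ± 0.23, adjusted p = 0.0656). On chow it passed without ApoE3 chow array 5 (0.83) or without ApoE3 HFD array 5, which enters only the shared spread.

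Iigp1, the effector that assembles on parasite vacuoles, was read by 2 probe sets with the same direction. The signals of the first were 423.3, 733.2 and 902.1 in ApoE4 on HFD, against 164.2, 200.35 and 529.9 in ApoE3 on HFD. On chow they were 351.4, 602.7 and 998.2 in ApoE4, against 181.3, 211.55 and 855.0 in ApoE3. The ApoE3 arrays were spread widely, with their highest far above their median on both diets. On HFD this probe set rose 2.87-fold (1.52 ± 0.35, adjusted p = 0.00455) and the second rose 1.93-fold (0.95 ± 0.29, adjusted p = 0.0210). On chow neither passed (0.92 ± 0.35, adjusted p = 0.0947, and 0.48 ± 0.29, adjusted p = 0.279). Without ApoE3 chow array 5 the first of them passed on chow (1.22).

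The Mx genes were at or under the detection limit. Many inbred laboratory strains, C57BL/6 among them, carry Mx1 alleles that make no functional protein. The Mx1 probe set had signals of 22.7, 27.55 and 37.5 in ApoE4 on HFD, against 12.7, 23.35 and 58.3 in ApoE3 on HFD, with 3 and 2 arrays called Present. On chow it had 16.8, 31.6 and 56.3 in ApoE4, against 11.6, 23.15 and 33.3 in ApoE3, with 4 and 1 arrays called Present. It passed on neither diet (0.080 ± 0.21, adjusted p = 0.813, on HFD and 0.37 ± 0.21, adjusted p = 0.256, on chow).

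The Mx2 probe set was called Absent on 24 of 24 arrays. Its signals were nonetheless unequal between genotypes: 36.3, 114.35 and 182.6 in ApoE4 on HFD, against 22.2, 26.35 and 46.0 in ApoE3 on HFD, and 25.7, 56.2 and 129.9 in ApoE4 on chow, against 17, 21.1 and 27.0 in ApoE3 on chow. On each diet 5 of 6 ApoE4 arrays read above the highest ApoE3 array. In a fit of all 22626 probe sets without a filter on calls, the adjusted p was 0.00176 on HFD and 0.0353 on chow. Because every array was called Absent, no fold change is given and the probe set is in none of the counts above.

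**Figure D2:**
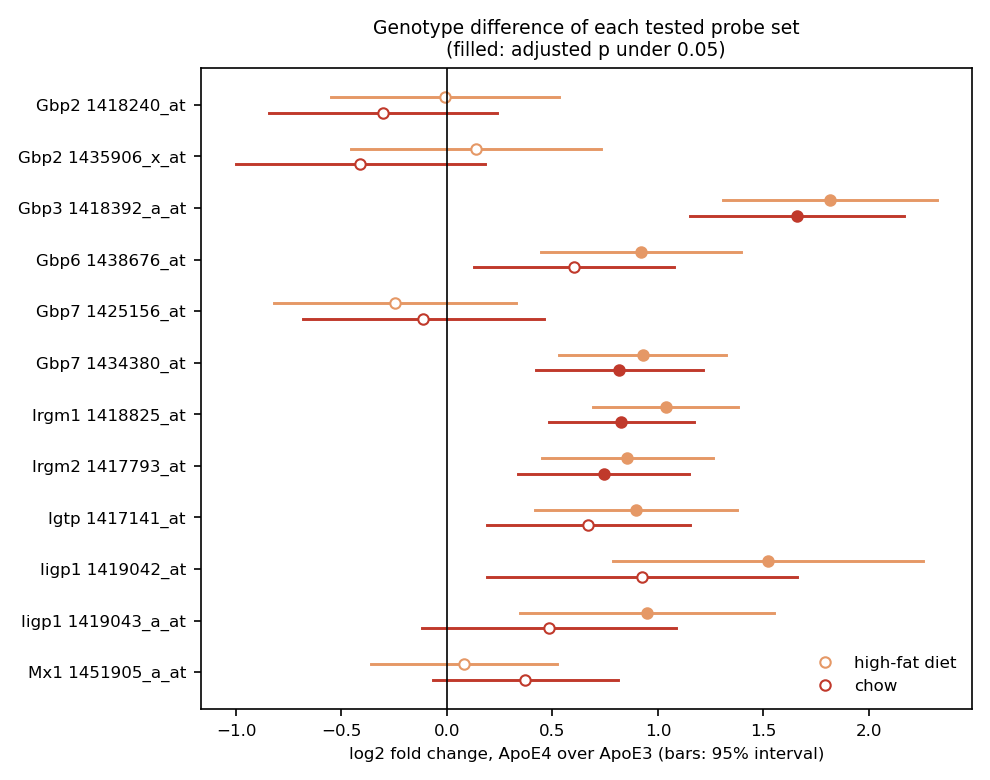
Log2 fold change, ApoE4 over ApoE3, of the 12 tested member probe sets on HFD and on chow, with 95% intervals. Filled points passed at adjusted p under 0.05, 8 on HFD and 4 on chow, and the points for Gbp2, Mx1 and the dimmer Gbp7 probe set are open on both diets.

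Diet made no difference that passed. In ApoE4 mice 0 of 12 member probe sets differed between HFD and chow, where 0% of all probe sets did. In ApoE3 mice 0 of 12 did, against 0.251% of all, and over both genotypes 0 of 12, against 0.0359%. At an unadjusted p under 0.05 the counts were also 0, 0 and 0. The lowest p belonged to Gbp3, which read 0.43 higher on HFD in ApoE4 (adjusted p = 0.827) and 0.27 higher in ApoE3 (adjusted p = 0.714), and the mean of both was 0.35 with an interval of -0.0090 to 0.71. In group means of log2 signal, 9 of the 13 member probe sets had ApoE4 HFD highest and ApoE4 chow next, and within each genotype the 2 diets did not differ beyond their spread for any of the 12 tested.

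The genotype difference on HFD minus that on chow passed for 0 of 12 member probe sets, where 0% of all passed, and for 0 at an unadjusted p under 0.05. It was above 0 for 10 of 12, with a median of 0.22 against -0.017 over all probe sets. The largest was the first Iigp1 probe set (0.60 ± 0.50, adjusted p = 0.727, interval -0.44 to 1.64). The difference in number of passing probe sets between diets, 8 and 4, is thus no test of a difference between them. Nor is the count of 10 above 0, since most member genes varied together within groups, as given below.

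Sex made no difference that passed either: 0 of 12 differed between females and males, against 1.01% of all probe sets, and 0 had an unadjusted p under 0.05. All 12 read higher in females, with log2 differences of 0.092 to 0.37 and a lowest p of 0.0794 for the second Gbp2 probe set. Over all probe sets the median difference was 0.010. Most member genes varied together within groups, as given below, and 3 have 2 probe sets, so the 12 are not separate observations of sex. The 14 macrophage markers had a median of 0.30, and 2 of them, C1qa and Mrc1, rose in females. Their part in the GTPase values was not tested. Within females, with 3 arrays per group, the ApoE4 minus ApoE3 difference was above 0 for 8 of 12 on HFD and 10 of 12 on chow, and within males for 12 of 12 and 9 of 12. Gbp3 differed by 1.46 on HFD and 1.53 on chow in females and by 2.17 and 1.78 in males.

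Within groups, the genes varied together from array to array. Deviations from the group mean, with sex taken out, were compared over 24 arrays, 1 probe set per gene. All points share an array's labelling and scaling, so the correlations are descriptions. The median correlation over 36 pairs of the 9 genes was 0.75, and without Mx1 it was 0.78 over 28 pairs, with 0.51 the lowest. Mx1 correlated with the others at 0.048 to 0.47. Gbp2 moved with the rest (r = 0.75 with the mean of the other genes), as did Gbp3 (0.81), Irgm1 (0.78), Igtp (0.84), Irgm2 (0.87), Gbp6 (0.90), Gbp7 (0.91) and Iigp1 (0.94). Gbp2 thus followed the shared variation within groups although its genotype difference did not pass.

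A few arrays carried much of that shared variation. ApoE3 HFD array 5 read above its group mean in 9 of 9 genes, ApoE3 chow array 2 in 9 of 9 and array 5 in 8 of 9, and ApoE4 chow array 3 in 9 of 9. The lowest mean deviation, in SD units of each gene, was that of ApoE4 HFD array 4 (-1.35), and counts of 0 or 1 of 9 were common, on 9 of the 24 arrays. Leaving out any 1 of the arrays named here kept the count at 8 on HFD, and on chow the counts lay between 3 and 6 over all single omissions.

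**Figure D3:**
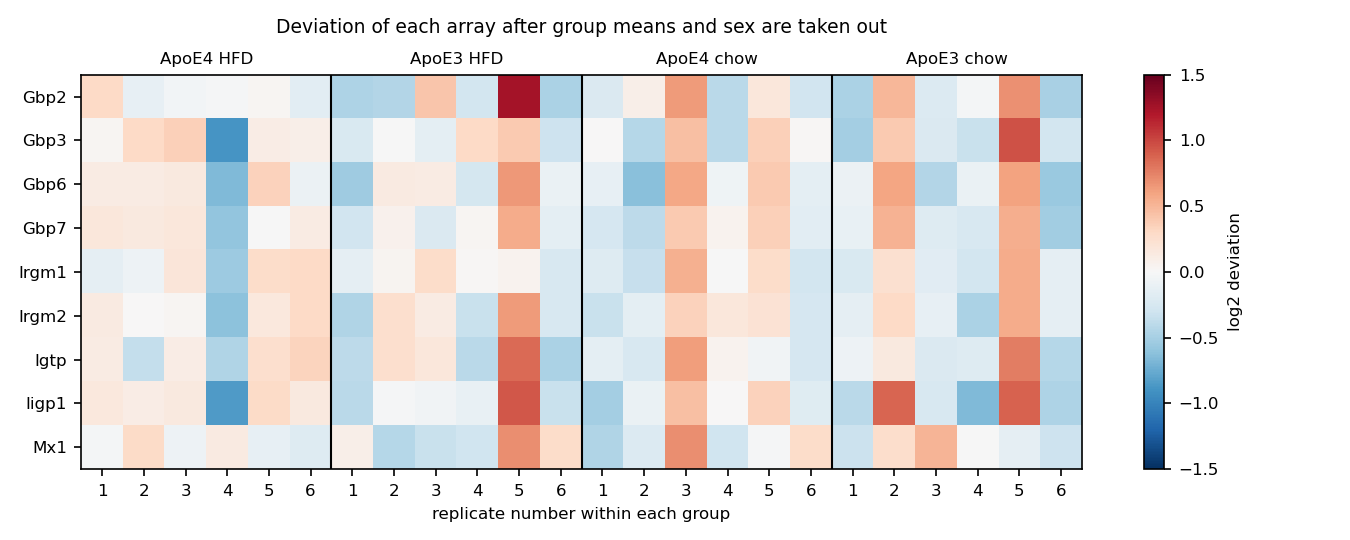
Log2 deviation of 9 genes (rows) on 24 arrays (columns, 6 replicates in each of ApoE4 HFD, ApoE3 HFD, ApoE4 chow and ApoE3 chow) after group means and sex were taken out. Red columns such as ApoE3 HFD array 5 and blue columns such as ApoE4 HFD array 4 run through most genes, with Irgm1 near 0 on the first and Gbp2 near 0 and Mx1 above it on the second.

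The genes whose deviations most resembled the mean of the group, of 8252 compared, were H2-D1 (r = 0.86), Cd274 (0.84), Parp14 (0.82), H2-K1 (0.81) and Oasl2 (0.78). H2-D1 and H2-K1 encode classical MHC class I chains, and their probe sets may share sequence. Cd274 encodes PD-L1, Parp14 an ADP-ribosyltransferase and Oasl2 a relative of the oligoadenylate synthetases. The median gene had r = -0.013, and 16 genes exceeded 0.7. On HFD 3 of these 5 rose in ApoE4 and on chow 1 did. Oasl2 was 2.07 ± 0.22 higher in ApoE4 on HFD (adjusted p = 2.22e-06) and 1.64 ± 0.22 on chow (adjusted p = 8.41e-05), while Cd274 did not pass (-0.21 ± 0.19, adjusted p = 0.420, and -0.29 ± 0.19, adjusted p = 0.325). Parp14 rose on HFD (0.38 ± 0.12, adjusted p = 0.0224) and missed on chow (0.35 ± 0.12, adjusted p = 0.0630), as did H2-K1 (0.26 ± 0.094, adjusted p = 0.0429, and 0.18 ± 0.094, adjusted p = 0.204). H2-D1 did not pass on either diet (0.21 ± 0.15 and 0.18 ± 0.15).

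Other genes of the interferon pathways gave the setting of these values, each read by 1 probe set. Of 18 tested type I interferon targets, 15 rose in ApoE4 on HFD and 13 on chow, and 0 fell. Of all probe sets tested, 10.4% rose on HFD and 4.44% on chow. The medians of the targets were 1.12 and 0.998. The 4 with the lowest p were Bst2, which tethers budding virus (1.19 ± 0.11 on HFD and 1.27 ± 0.11 on chow), Ifit1, which binds viral RNA (2.66 ± 0.24 and 2.07 ± 0.24), Ifitm3, which blocks viral entry (0.85 ± 0.11 and 0.92 ± 0.11), and Rsad2 (viperin, 1.29 ± 0.14 and 1.07 ± 0.14). Oas1a and Ifit2, among the 18 targets, entered the test through ApoE4 arrays. On HFD they were Present on 6 and 6 ApoE4 arrays and on 0 and 1 ApoE3 arrays. On chow they were Present on 5 and 5 ApoE4 arrays and on 0 and 0 ApoE3 arrays. The counts of targets therefore depend partly on the filter. Of 8 tested genes of type I signalling, 4 rose and 1 fell on HFD, and 3 rose and 0 fell on chow. Usp18, a brake on the type I receptor, rose by 2.15 ± 0.23 and 1.77 ± 0.23, and Irf7, a transcription factor that amplifies interferon production, rose by 1.37 ± 0.19 and 1.2 ± 0.19. Irf9 and Stat2, parts of the factor that binds the ISRE, read 0.52 ± 0.12 and 0.55 ± 0.19 higher on HFD, where both passed, and on chow Irf9 rose by 0.44 ± 0.12 and Stat2 missed (0.42 ± 0.19, adjusted p = 0.146). The receptor chain Ifnar1, named for its value, fell by 0.25 on HFD.

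Genes induced chiefly by interferon gamma that could be tested showed no such shift. Cxcl9, Cxcl10, Cxcl11, Ciita, Ido1, Nos2 and Ubd, also of this list, were Present on 0 to 5 arrays and were not tested. Among those tested, Psmb9, Psmb10 and Cd274 were Present on 8, 7 and 11 arrays. Psmb10 entered the test through ApoE4 arrays, being Present on 5 ApoE4 and 0 ApoE3 arrays on HFD and on 2 and 0 on chow. Psmb9 was Present on 3 ApoE4 and 1 ApoE3 arrays on each diet, and Cd274 on 4 and 2 on HFD and 3 and 2 on chow. Of 12 tested, 0 rose and 1 fell on HFD, and 0 rose and 0 fell on chow, with medians of 0.012 and 0.087. H2-Eb1, an MHC class II chain, was the one that fell (-0.42 ± 0.14, adjusted p = 0.0301), and Psmb8, an immunoproteasome subunit, did not pass (0.32 ± 0.21 and 0.36 ± 0.21). Of 6 tested genes of gamma signalling 0 rose on either diet, 1 fell on HFD and 3 on chow. Irf1, a transcription factor known to drive Gbp genes, fell by 0.40 on HFD (adjusted p = 0.0419) and by 0.50 on chow (adjusted p = 0.0261). Irf8 fell by 0.50 (adjusted p = 0.0242) and the receptor chain Ifngr1 by 0.70 (adjusted p = 0.00906) on chow, and neither passed on HFD (-0.36 ± 0.14 and -0.11 ± 0.16). The interferon genes themselves did not enter the test: Ifng, Ifna1, Ifna2 and Ifna4 were called Present on 0 arrays and Ifnb1 on 5.

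**Figure D4:**
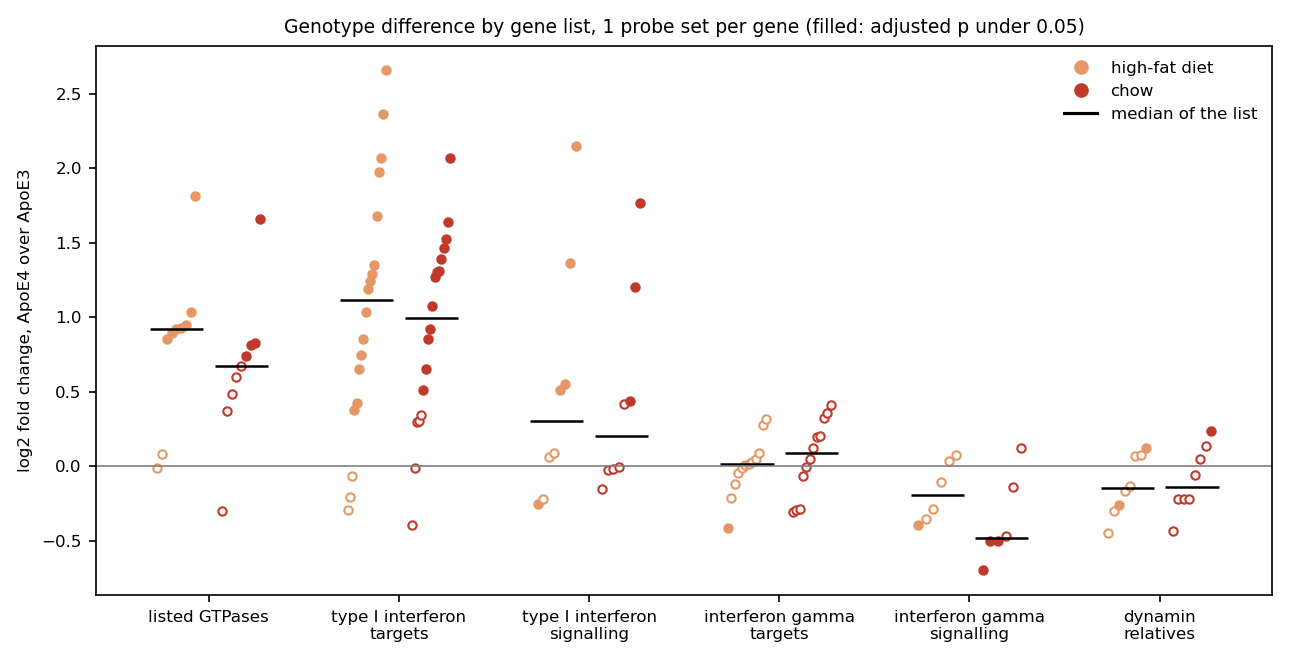
Log2 fold change, ApoE4 over ApoE3, of each tested gene in 6 lists, on HFD (left within each list) and chow (right), with the median as a bar and filled points at adjusted p under 0.05. The listed GTPases and the type I targets sit mostly above 0, and the gamma targets sit around 0.

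Within groups, both target lists followed the GTPases. The mean deviation of the type I targets correlated with that of the GTPases at r = 0.77 (rho 0.82) and that of the gamma targets at r = 0.76 (rho 0.74) over 24 arrays. Without the 2 arrays farthest from the median, ApoE3 HFD array 5 and ApoE3 chow array 5, these were 0.85 and 0.70. The same measure was 0.52 for type I signalling and 0.22 for gamma signalling, and 16 such relations were computed in all.

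Partners of the GTPases gave few calls. Of 13 tested autophagy genes that place IRG and Gbp proteins on membranes, 2 rose (Trim21 and Atg12) and 2 fell (Atg7 and Atg16l1) on HFD, and 1 rose (Trim21) and 0 fell on chow, shares on HFD near those of all probe sets (10.4% and 16%). Trim21, an antibody receptor in the cytosol that is itself interferon-induced, rose by 0.56 ± 0.083 on HFD and by 0.42 ± 0.083 on chow. Of 3 tested inflammasome genes, Pycard rose (0.60 ± 0.12) and Il1b, called Present on 1 ApoE4 and 0 ApoE3 arrays there, fell (-0.53 ± 0.12) on HFD, and 0 of 3 passed on chow. Among 8 dynamin relatives, Dnm1l rose (0.12 ± 0.045) and Mfn2 fell (-0.26 ± 0.070) on HFD, and Mfn1 rose on chow (0.24 ± 0.058). Of 27 other interferon-induced GTPases listed, 2 had a probe set of a single symbol, Gbp2b (Present on 2 arrays) and Gbp8 (on 1), and 0 were tested.

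Several measures of cells and arrays differed between the genotypes beside these results. In bulk tissue, fewer cells of a type and less RNA per cell cannot be told apart. For the marker counts that follow, 10.4% of all probe sets tested rose and 16% fell on HFD, and 4.44% and 5.81% on chow. Of 11 T and NK cell markers on the array 3 were tested, and Cd3d, Cd3e, Cd4, Gzmb, Nkg7, Ccl5 and Ifng were Absent on all arrays of every group. The summed signal of the list was 444.1 to 612.6 in ApoE4 and 579.6 to 841.9 in ApoE3 on HFD, and 416.6 to 642 in ApoE4 and 533.6 to 823.5 in ApoE3 on chow. Of the 3 tested, 2 fell on HFD (Klrd1 and Cd8a) and 1 on chow (Klrd1). Klrd1 was Present on 3 ApoE4 and 1 ApoE3 arrays on HFD, and on 1 and 1 on chow. Cd8a was Present on 3 ApoE4 and 2 ApoE3 arrays on HFD. Both falls thus rest on signals near background. Prf1, Present on all 24 arrays, passed on neither diet alone. In the mean of both diets all 3, Prf1 among them, fell in ApoE4, where 22.9% of all probe sets tested fell. Of 14 tested macrophage markers 0 rose and 5 fell on HFD, and 1 rose (C1qa, Absent on all ApoE3 chow arrays) and 3 fell on chow. Stab1 fell on both (-0.86 ± 0.14 and -0.82 ± 0.14) and Cd163 on HFD (-0.58 ± 0.16). Cd163 is also among the 3 on chow, but it was Absent on all arrays of both chow groups, so no fold is given there. Their summed signal was 6066.7 to 7992.4 in ApoE4 and 6388.6 to 9446.6 in ApoE3 on HFD, and 4844.8 to 8261.3 in ApoE4 and 5196.1 to 8789.1 in ApoE3 on chow. Of 9 smooth muscle and pericyte markers 0 rose and 5 fell on each diet, with medians of -0.37 on HFD and -0.36 on chow. Acta2, the smooth muscle actin, fell by 0.43 on HFD and by 0.32 on chow. Their summed signal was 7270.5 to 8568 in ApoE4 and 7199.4 to 10132.7 in ApoE3 on HFD, and 7876.3 to 9127.2 in ApoE4 and 7921.2 to 14144 in ApoE3 on chow. Of 8 epithelial markers 1 rose and 1 fell on HFD and 0 passed on chow. Of 8 fibroblast markers 1 rose and 0 fell on HFD and 0 passed on chow, with medians of 0.15 and 0.14. Over both diets 3 of the 8 rose and 0 fell, where 14.7% of all probe sets rose. Their summed signal had medians of 8222.15 in ApoE4 and 6941.7 in ApoE3 on HFD, and 8590.4 and 7471.3 on chow. Of 9 endothelium markers 0 passed on either diet. Within groups the choroid epithelium list correlated with the GTPases at r = -0.48 (rho -0.52, r = -0.46 without the 2 farthest arrays), the macrophage list at 0.41, the T and NK list at 0.098 and the smooth muscle and pericyte list at 0.046. The fibroblast list correlated with them at -0.0020 and the endothelium list at -0.14. The markers' part in the GTPase differences was not tested.

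The ApoE4 arrays had 59.0% of probe sets Present against 55.4% in ApoE3 on HFD (adjusted p = 0.0130), and 58.2% against 54.8% on chow (adjusted p = 0.00866, exact permutation tests, 12 in all). Their median signal was 150.6 against 173.2 on HFD (adjusted p = 0.00866) and 152.4 against 168.4 on chow (adjusted p = 0.0260). Their hybridization controls were dimmer, with mean log2 signals of 11.24 against 11.61 on HFD (adjusted p = 0.0216) and 11.29 against 11.64 on chow (adjusted p = 0.00866). Brain markers (neuron, oligodendrocyte, astrocyte) averaged 7.96 in ApoE4 and 8.32 in ApoE3 on HFD (adjusted p = 0.0156) and 7.88 and 8.10 on chow (adjusted p = 0.0606). With that hybridization signal as a covariate, 6 of 12 member probe sets rose on HFD and 3 on chow, and with the brain marker mean 7 and 4. Without the 4 arrays of dimmest hybridization controls, ApoE4 HFD arrays 2, 5 and 6 and ApoE4 chow array 5, 4 of 12 rose on HFD and 4 on chow. Over all probe sets, 1572 rose on HFD and 892 on chow with the hybridization covariate, and 537 and 368 with the brain marker mean. Without the 4 arrays 1150 and 756 rose, against 1444 and 619 in the main fit. Dates of capture and hybridization were not among the labels, so batch and group cannot be told apart. Gbp3, Irgm1 and the brighter Gbp7 probe set passed on both diets under all 38 alternatives. Gbp3 lay between 1.59 and 2.08 on HFD and between 1.44 and 1.86 on chow. Irgm1 lay between 0.85 and 1.15 on HFD and between 0.69 and 0.94 on chow. The brighter Gbp7 probe set lay between 0.79 and 1.09 on HFD and between 0.69 and 0.93 on chow.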

How the data were processed

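Choroid plexus RNA of 24 samples was measured on Affymetrix Mouse430A_2 arrays, collected by laser capture and labelled by in vitro transcription per the labels' protocols. The intensity values deposited by the authors are GCOS 1.4 signals, per the submitters' processing notes, on a linear scale. The algorithm behind them is not given in the sources used here. Detection calls were used as a filter. The pair of tables matched in all 544560 signals.

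Groups and sex came from the labels. Genes came from the platform annotation: 20380 probe sets named 1 gene, 691 several and 1555 none, and 64 controls were left out. Signals were taken to log2 after adding 16, and 13936 probe sets Present on at least 6 of 24 arrays were fitted with limma 3.58.1 in R 4.3.3 (4 group means and sex, trend and robust). Contrasts gave 8 comparisons, two-sided, adjusted by Benjamini-Hochberg over all probe sets, and an adjusted p under 0.05 passed. For lists, the probe set of highest mean signal stood for a gene. Array measures were compared by exact permutation in Python 3.11.15 with scipy 1.17.1, and pandas 2.3.3, numpy 2.4.6 and matplotlib 3.10.9 were used. The fit was tested on simulated data. The number of arrays limits the precision.

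Named were every member probe set, of each list its counts and the 4 genes of lowest p in the mean genotype comparison, and the 5 genes whose variation within groups was most like the members'. Further genes were named for their values where 5 or fewer of a list moved. The members and lists were chosen with earlier results of these data known. Alternatives were other pseudocounts (1 and 64), quantile normalization, no filter or Present on 12 arrays, no sex term, a replicate block, only the arrays compared, 1 probe set per gene, array weights, covariates for hybridization, Actb 3' to 5' ratio and brain markers, the 4 dimmest hybridizations left out, and each array left out.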

Additional observations from a re-analysis of the deposited data

Results flagged for a closer look

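In 52 sets of 6 arrays (13 probe sets in 4 groups) the highest or lowest array was compared with its nearest neighbour by Dixon's ratio, and 8 were beyond the critical value. Chance flags about 1 in 20 such groups. The flags fell on 3 arrays. ApoE4 HFD array 4 was the lowest of its group for Gbp3 (957.5), the brighter Gbp7 probe set (518.6), the second Iigp1 probe set (521.6) and the second Gbp2 probe set (116.8). ApoE3 HFD array 5 was the highest of its group for the first Iigp1 probe set (529.9), the second Iigp1 probe set (937.1) and the second Gbp2 probe set (338.3). ApoE3 chow array 5 was the highest of its group for Igtp (1400.1).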

How the results depend on the processing

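On HFD the count of 8 member probe sets stayed at 6 to 9 under the alternatives other than the fit without the 4 arrays of dimmest hybridization controls, where it was 4. That fit leaves 3 ApoE4 arrays on HFD, and Igtp (0.80), Irgm2 (0.69), Gbp6 (0.78) and the second Iigp1 probe set (0.75) no longer passed, against 0.90, 0.86, 0.92 and 0.95 with all arrays. Leaving out 1 array gave 8 on HFD in each case and 3 to 6 on chow (3 without ApoE4 chow array 4, 6 without ApoE3 chow array 5). On chow the other alternatives gave 3 to 6, and Irgm2 no longer passed with the hybridization covariate (adjusted p = 0.0840) or the Actb covariate (0.0818). Without a filter Mx2 entered and passed on both diets, and over both diets Mx1 passed after quantile normalization (0.41, adjusted p = 0.0330). Diet, interaction and sex gave 0 under all alternatives run. Samples sharing a replicate number were not treated as paired: their deviations correlated at -0.31 to 0.16 over 36 pairs and 0 of 24 arrays correlated best with its own number. With the replicate block 8 passed on HFD and 6 on chow.

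The sign turned only for probe sets that did not pass. The first Gbp2 probe set on HFD became 0.0019 with a pseudocount of 1, 0.16 after quantile normalization, 0.073 without the 4 dimmest arrays and 0.36 with the brain covariate, and -0.11 to 0.25 with 1 array left out. The second on HFD became -0.067 with the hybridization covariate and -0.019 to 0.35 with 1 array left out. Over both diets they became 0.14 (first, brain covariate), 0.038 (second, quantile) and 0.23 (second, brain covariate). The dimmer Gbp7 probe set became 0.056 on chow and 0.015 over both diets after quantile normalization, and -0.23 to 0.040 on chow with 1 array left out. Mx1 on HFD ran from -0.011 to 0.23 with 1 array left out. The cause was not tested.

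Over all probe sets, 1428 passed on chow, against 908 with only the arrays compared, 806 with 1 probe set per gene, 2334 with the hybridization covariate and 795 with the brain covariate. On HFD 3678 passed, against 2300 with 1 probe set per gene and 1261 with the brain covariate. Over both diets 5245 passed, against 3145 and 2193. Quantile normalization turned the balance of calls, with 1563 higher and 1247 lower on HFD, against 1444 and 2234, and 662 and 491 on chow, against 619 and 809.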
